A study of Homo sapiens with 3 samples.

Results

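The ID genes, ID1, ID2, ID3 and ID4, were followed by ribosome profiling in HEK293T cells with and without the aminoglycoside G418. They were found by gene symbol, and all 4 were listed among the 8812 transcripts (a single transcript per gene) present in the tables of all 3 libraries. Comparisons across transcripts were limited to those with a total of at least 384 reads in the coding sequence (CDS) over the 3 libraries, 5684 transcripts. ID2, ID3 and ID4 were among them and ID1, with a total of 301 reads, was not. The genes were chosen by name, as a family selected on CDS density changes in G418 that were already known, so the values of this contrast are a description and carry no test.

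ID proteins are helix-loop-helix proteins that lack the basic region through which related transcription factors hold DNA. They pair with the E proteins (the products of TCF3, TCF4 and TCF12) and keep them from binding DNA, which is known to hold cells back from differentiation and to favour cell division. The genes are textbook targets of BMP signalling through SMAD proteins, and the mRNAs and proteins are short-lived.

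HEK293T cells derive from human embryonic kidney and express the SV40 large T antigen. A pair of libraries came from untreated cells (Untreated A and Untreated B) and 1 from cells given 500 ug/mL G418 for 24 hours (G418 A). G418 binds the decoding centre of the ribosome and makes it accept wrong tRNAs, at stop codons too, so that some ribosomes continue into the 3′UTR (stop codon readthrough). Ribosome profiling counts the mRNA fragments that ribosomes protect (RPFs), and a CDS density therefore moves with the amount of mRNA as well as with its translation, which cannot be told apart here. Untreated A was sequenced to a depth of 5857230 reads, Untreated B to 9477972 and G418 A to 7216039. The 3′UTRs of all listed transcripts held 0.389%, 0.335% and 2.55% of the reads on these transcripts in that order, and the 5′UTRs 2.36%, 2.48% and 2.18%. Of 9 marker genes of the line, 7 were listed in every library (PAX2 was listed in 1 and CDH2 in none). Of 7 markers of blood, liver, fibroblasts and endothelium, only COL1A1 was listed, at 7.98 to 10.7 RPKM (reads scaled to the length of the region and the depth of the library).

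All 4 CDSs end in the stop codon UGA, and they differ in the nucleotide that follows it, which takes part in how efficiently the codon is read as a stop. The windows below hold the last 15 bases before the stop codon, the stop codon and the 12 bases after it, in the mRNA sense and written as DNA. They come from the GENCODE release 44 transcripts on hg38, which have the same identifiers and versions as the deposited tables. Capitals mark the stop codon and the next nucleotide, called the stop signal here. They are shown because readthrough is compared between transcripts with the same stop signal.
ID1: cgcatcttgtgtcgcTGAAgcgcctccccc
ID2: aaagcactgtgtggcTGAAtaagcggtgag
ID3: aggagcttttgccacTGACtcggccgtgtc
ID4: agcattctgtgccgcTGAGccgcgctgtcc
ID1 and ID2 thus share the signal UGAA, ID3 has UGAC and ID4 has UGAG.

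The windows lie at chr20:31606077-31606106 (plus strand) for ID1, chr2:8682882-8682911 (plus) for ID2, chr1:23558948-23558977 (minus) for ID3 and chr6:19838611-19838640 (plus) for ID4. The listed transcripts were ENST00000376112.4 for ID1 (chr20:31605289-31606510, 155 codons), ENST00000331129.3 for ID2 (chr2:8682056-8683007, 134 codons), ENST00000374561.6 for ID3 (chr1:23557926-23559501, 119 codons) and ENST00000378700.8 for ID4 (chr6:19837370-19842197, 161 codons). The stop codon lies in exon 2 of each, which is the last exon of ID1 and ID2. In ID3 and ID4 another exon follows, and the exon junction lies 25 nt (ID3) and 14 nt (ID4) after the stop codon. The CDSs were 64.1% to 70.1% identical at the nucleotide level over the bases aligned in pairs, and no stretch of 28 nt, the shortest fragment counted, was shared between members. A share of 28-nt stretches was common to another gene in ID2 (91 of 596, all shared with the processed pseudogene ID2B) and in ID4 (2 of 3846), so that ID2 alone had an appreciable part of its sequence where a read could be credited elsewhere.

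In the CDS, G418 A had fewer ribosomes than either untreated library on ID1, ID2 and ID3. On ID4 the G418 value lay between the untreated ones. Relative to the untreated mean, CDS density was 0.419-fold for ID1, 0.812-fold for ID2, 0.486-fold for ID3 and 0.921-fold for ID4. CDS density is given below in RPKM with its 95% exact Poisson interval, which covers counting error only.

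ID1 was the lowest of the family, at 34.9 RPKM (28.1 to 43.0; 89 reads) in Untreated A and 39.5 (33.7 to 46.1; 163 reads) in Untreated B. In G418 A it stood at 15.6 RPKM (11.6 to 20.6; 49 reads). The untreated mean was 37.2 ± 3.26 RPKM (SD, n = 2), and neither untreated interval overlapped that of G418 A. On the log2 scale the difference in CDS density was -1.16 over Untreated A (-1.70 to -0.64) and -1.34 over Untreated B (-1.83 to -0.87), against 0.18 between the untreated libraries.

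ID3, named with ID1 as an early BMP target, stood at 99.7 RPKM (86.1 to 114.9; 191 reads) in Untreated A and 125 (113 to 138; 388 reads) in Untreated B. In G418 A it had 54.7 RPKM (45.6 to 65.0; 129 reads). The untreated mean was 112 ± 18.0 RPKM (SD, n = 2), and G418 A lay below both untreated libraries with no overlap of the intervals. The log2 difference was -0.87 over Untreated A (-1.20 to -0.54) and -1.20 over Untreated B (-1.49 to -0.90), against 0.33 (0.07 to 0.59) between the untreated libraries.

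ID2, the most abundant member, had 249 RPKM (228 to 271; 542 reads) in Untreated A, 236 (220.2 to 253; 832 reads) in Untreated B and 197 in G418 A (180.3 to 214; 528 reads). G418 A was again the lowest and its interval did not reach those of the untreated libraries, but the step was small, with log2 differences of -0.34 (-0.51 to -0.16) and -0.26 (-0.42 to -0.10). The untreated libraries differed by -0.08 (Untreated B over Untreated A). Of the 5684 transcripts, 1530 differed between the untreated libraries by at least the size of the ID2 change over the untreated mean (-0.30).

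ID4 had 88.6 RPKM (77.6 to 100.6; 235 reads) in Untreated A, 112 (102 to 122; 481 reads) in Untreated B and 92.4 in G418 A (82.3 to 103; 302 reads). Against Untreated A the log2 difference was 0.06 and against Untreated B -0.28, while the untreated libraries differed by 0.34. G418 A was therefore within the range of the untreated libraries.

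**Figure D1:**
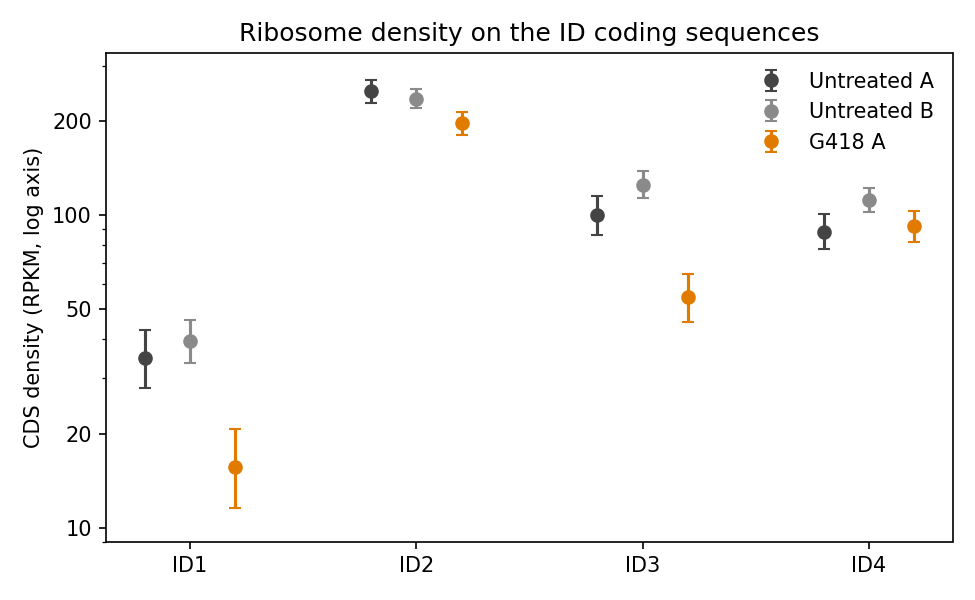
CDS density of each ID gene (RPKM, log axis) in the 3 libraries, with 95% exact Poisson intervals of the reads as bars. For ID1 and ID3 the G418 A point (15.6 and 54.7 RPKM) lies clear of both untreated points, for ID2 it lies a little below them, and for ID4 it lies between them.

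In the untreated cells the order of levels per length was ID2 (242 ± 9.03 RPKM), ID3 (112 ± 18.0), ID4 (100.3 ± 16.6) and ID1 (37.2 ± 3.26; SD, n = 2 each), and ID3 and ID4 did not differ by more than their spread. In G418 A the order was ID2, ID4, ID3 and ID1, and the intervals of ID4 and ID3 no longer met. The ratio of 2 members within a library does not depend on how libraries are scaled. The density of ID3 over that of ID4 was 1.13 in Untreated A (95% interval from the reads, 0.925 to 1.37), and in Untreated B it was 1.12 (0.975 to 1.28). G418 A had a ratio of 0.592 (0.478 to 0.730). ID1 over ID2 was 0.140, 0.168 and 0.0794 in the same order. ID1 over ID3 was 0.350, 0.316 and 0.286, with intervals that overlapped in all 3 libraries. ID3 over ID2 was 0.401, 0.531 and 0.278. Within the family, G418 A thus had the lowest ratio of ID1 to ID2 and of ID3 to both ID2 and ID4.

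Across the 5684 transcripts the median log2 change over the untreated mean was 0.07. ID3 was 1 of only 5 (0.088% of the transcripts) that had fallen by at least 1 over the untreated mean, and ranked the fourth lowest. Over Untreated A alone it did not reach that limit (3 transcripts, 0.0528%, did), and over Untreated B it did (12 transcripts, 0.211%). With the minimum lowered to a total of 60 CDS reads, which admits ID1, 54 of 8480 transcripts (0.637%) had fallen by at least 1, with ID1 and ID3 among them. ID1 had the 21st lowest change of the 8480 and ID3 the 50th. ID1 was below the limit over each untreated library, as were 16 of the 8480 (0.189%). Between the untreated libraries, 141 of the 8480 differed in either direction by at least the size of the ID1 change over the untreated mean. For the size of the ID3 change it was 291 of the 8480, and 22 of the 5684. The change of ID2 was at or above that of 9.24% of the 5684 transcripts and that of ID4 at or above 25.1%. Of the 5684 transcripts, 8 (0.141%) were lower by at least 1 in Untreated B than in Untreated A and 16 (0.281%) higher.

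**Figure D2:**
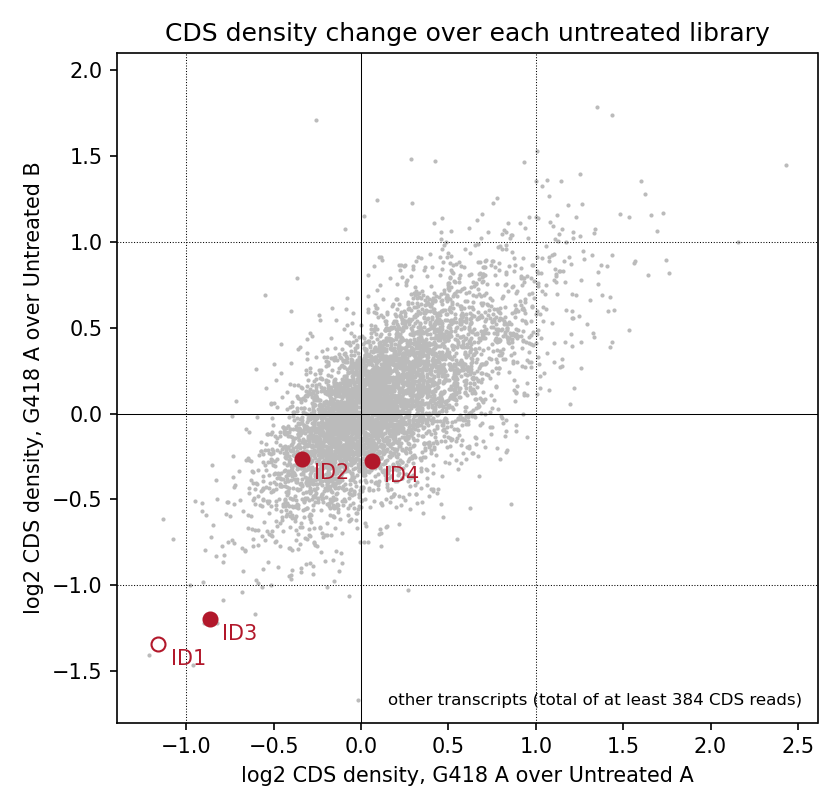
Log2 change of CDS density in G418 A over Untreated A (horizontal axis) and over Untreated B (vertical axis) for the transcripts with a total of at least 384 CDS reads (grey) and the ID genes (red; ID1 is drawn open because its total of 301 reads is under that minimum). Dotted lines mark changes of 1 and -1. ID1 and ID3 lie at the lower left edge, ID2 (-0.34 and -0.26) and ID4 (0.06 and -0.28) within the body of the points.

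The transcripts whose pair of changes lay nearest to ID3 and to ID4 were taken by Euclidean distance over both log2 changes, that is over 2 comparisons that share the G418 library. For ID3 they were TCEAL8 (-0.90 over Untreated A and -1.22 over Untreated B), PRMT6 (-0.82 and -1.22) and HIST2H2BE (-0.79 and -1.08). Reads of HIST2H2BE can be shared with other H2B genes. For ID4 they were PLCG1, SRSF8 and SMARCA4, all at a distance of at most 0.0185. The nearest transcript to ID3 was farther away, at 0.0391.

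Counting the reads on the whole transcript gave another picture for ID3. In RPM (reads scaled to the depth of the library) its mRNA had 32.6 in G418 A, where Untreated A had 34.5 and Untreated B 41.4, a log2 difference of -0.22 from the untreated mean. ID1 had 15.7, 18.9 and 7.62 RPM on the mRNA, and its log2 difference stayed at -1.18. For ID2 the values were 92.7, 88.0 and 73.7 RPM, and for ID4 57.4, 70.5 and 72.6 RPM. Reads outside the CDS separated these measures, and on ID3 they lay in the 3′UTR. ID4 had reads in both UTRs. Those in its 3′UTR went from an untreated mean of 0.382 RPM to 10.1 in G418 A, and those in its 5′UTR from 18.1 to 20.6.

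The 5′UTR reads of the family were almost all on ID4. Untreated A had 99 of them, Untreated B 183 and G418 A 149, which was 29.5% (Wilson 95% interval, 24.8% to 34.5%), 27.4% (24.1% to 30.9%) and 28.4% (24.7% to 32.4%) of the transcript's reads. The 3 intervals overlapped, and the share in G418 A lay between the untreated ones. Per length, the 5′UTR of ID4 had 44.6, 50.9 and 54.5 RPKM, so that G418 A was the highest, by less than the untreated libraries differed from each other. The median share over the 5684 transcripts was 0.550%, 0.703% and 0.506% in the same order, and 78, 74 and 51 transcripts had a higher share than ID4. Its 5′UTR, of 385 nt, was the longest of the family (99 nt in ID1, 110 in ID2 and 75 in ID3).

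On ID1, Untreated A had 3 reads in the 5′UTR, Untreated B 12 and G418 A 1, or 3.26%, 6.70% and 1.82% of the transcript's reads. The intervals of these shares overlapped, and at this depth no change in the share was detectable. Scaled to depth, G418 A had 0.142 times the 5′UTR reads of the pooled untreated libraries (0.00337 to 0.921), beside 0.413 times the CDS reads (0.298 to 0.563), and these intervals overlapped as well. ID2 had a single 5′UTR read in G418 A and none in the untreated libraries. ID3 had none in any library, which allows a share of up to 1.87%, 0.970% and 1.61% (upper Wilson limits) in Untreated A, Untreated B and G418 A. None of the listed 5′UTRs holds an AUG, which 41.8% of 6845 matched transcripts do, so no upstream reading frame that opens with AUG lies under the reads of ID4.

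In the 3′UTR, G418 A had many reads on ID3 and ID4 and few on ID1 and ID2. On ID3, Untreated A had 11 reads there, Untreated B 4 and G418 A 106, which was 5.45%, 1.02% and 45.1% (38.9% to 51.5%) of its reads. Only 5 of the 5683 other transcripts had a larger share of their reads in the 3′UTR in G418 A, where the median was 1.69%. ID4 had 2, 4 and 73 reads, or 0.595%, 0.599% and 13.9% (11.2% to 17.2%), with 152 transcripts above it in G418 A. Scaled to depth and with the untreated libraries pooled, the 3′UTR reads were 15.02 times as many in G418 A for ID3 (95% interval from the reads, 8.71 to 27.8) and 25.9 times as many for ID4 (11.3 to 72.8). ID1 had 0, 4 and 5 reads in its 3′UTR, or 0%, 2.23% and 9.09% (3.95% to 19.6%) of its reads, and the interval in G418 A overlapped both that of ID4 and that of Untreated B (0.872% to 5.604%). A larger share was seen in 367 transcripts in G418 A. ID2 had 1, 2 and 3 reads, or 0.184%, 0.240% and 0.564%, and 4306 of the 5683 others had a larger share in G418 A. As density over the whole 3′UTR relative to the CDS, G418 A had 10.8% for ID1, 2.07% for ID2, 52.8% for ID3 and 3.65% for ID4, whose 3′UTR of 3002 nt is the longest.

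**Figure D3:**
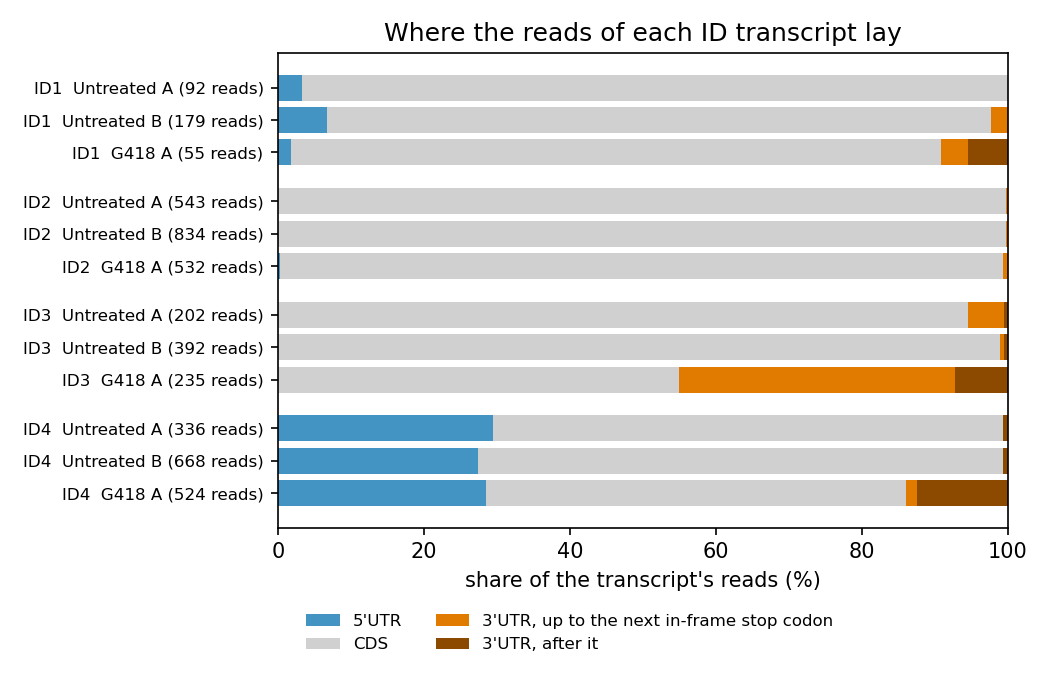
Share of each ID transcript's reads (horizontal axis, percent) in the 5′UTR, the CDS, the 3′UTR up to the next in-frame stop codon and the 3′UTR after it, in each library, with the number of reads in brackets. The 5′UTR of ID4 holds 27.4% to 29.5% in every library, and the 3′UTR of ID3 holds 45.1% in G418 A against 5.45% and 1.02% in the untreated libraries.

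Readthrough is measured by the ribosome readthrough score (RRTS), the density between the normal stop codon and the next in-frame stop codon of the 3′UTR over the density of the CDS, given here in percent. A score of 100% means as many ribosomes per length after the stop codon as before it. In G418 A 75.8% of the 5684 transcripts had a score above 0 and 7.14% a score over 100%. ID3 was the only member over 100%.

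The extension open to a ribosome that reads through ID3 runs 153 nt, to the end of a UAA. Untreated A had 10 reads in it, Untreated B 2 and G418 A 89. The RRTS was 11.6% (5.58% to 21.4%), 1.15% (0.139% to 4.14%) and 153% (123% to 189%), an untreated mean of 6.40% ± 7.42 (SD, n = 2). G418 A was far above both untreated libraries, 13.2-fold over Untreated A and 134-fold over Untreated B, but the untreated libraries themselves differed 10.2-fold, on few reads. Because RRTS divides by CDS density, the lower CDS density of ID3 enters it, and the density in the extension itself was 11.6, 1.43 and 83.9 RPKM. The RRTS of transcripts with the signal UGAC had a median of 38.7% in G418 A, and 36 of the 560 others exceeded ID3. Over all stop signals 171 of 5683 others did, of which 11 had at least 50 reads behind the score.

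Reads on ID3 went on past the next stop codon. Untreated A had 1 read after it, Untreated B 2 and G418 A 17, where the density was 11.9% of that of the CDS (median of the other transcripts, 0.650%). The rise of these reads over the pooled untreated libraries was 12.04-fold (3.48 to 64.1).

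The extension of ID4 is short, ending 30 nt after the stop codon in a UGA, and 24 nt of it are counted. No read fell there in the untreated libraries, which 3 reads over both would have put at an RRTS of 7.91%, and 8 fell there in G418 A. The RRTS in G418 A was 50% (21.6% to 98.5%), or 6.32 times that limit, a ratio that leaves out the counting error of the 8 reads. In Untreated A alone 3 reads would be an RRTS of 24.1%, above the lower end of the G418 A interval, and in Untreated B 11.8%. The median of UGAG transcripts was 19.9%, and 199 of the 1053 others exceeded ID4. Most 3′UTR reads of ID4 lay beyond that second stop codon, 2 of those of Untreated A, 4 of Untreated B and 65 of G418 A. In-frame stop codons follow at 123 nt (UAG) and 201 nt (UAA). Over the remaining 2972 nt of the 3′UTR the G418 A reads came to 3.28% of the CDS density. The median of 5119 other transcripts was 0.650%, and 81.0% of them were lower than ID4. Where in this stretch the reads of ID4 lay cannot be read from these data.

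ID1 has an extension of 135 nt to the end of a UAA. It held 0, 4 and 2 reads, giving an RRTS of 0%, 8.28% (2.25% to 21.2%) and 13.8% (1.67% to 49.7%). The interval in G418 A contained the values of both the UGAA median (29.8%) and Untreated B, and a difference was not detectable at this depth. A further 3 reads lay after the second stop codon in G418 A and none in the untreated libraries.

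On ID2, where 136 reads would lie in the counted region of G418 A at the density of the CDS, nearly none did. It had 1, 2 and 3 reads after the stop codon and an RRTS of 0.715%, 0.931% and 2.20% (0.454% to 6.43%), below 636 of the 787 other UGAA transcripts in G418 A. The listed 3′UTR is 108 nt long with no in-frame stop codon. The other 3 annotated ID2 transcripts that hold the same stop codon share only the first 10 nt of that 3′UTR. They have 3′UTRs of 354 to 784 nt with an in-frame UGA that ends 78 nt after the stop codon. Readthrough on those isoforms would for the most part not be counted. Which isoform the cells carry cannot be read from these data, so the low score holds for the listed transcript alone. Isoforms of the other members were not compared in this way.

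**Figure D4:**
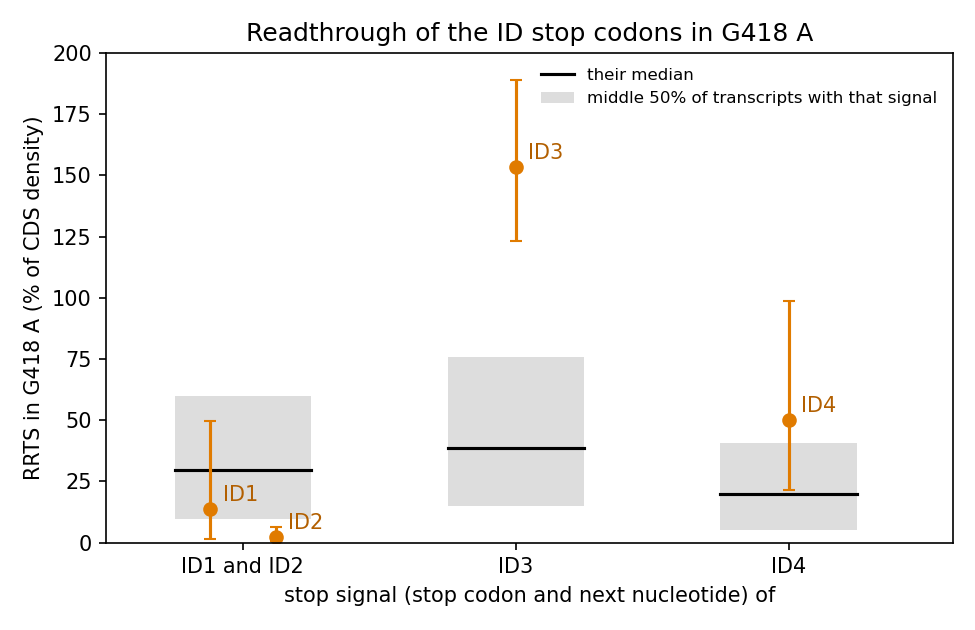
RRTS of the ID stop codons in G418 A (vertical axis, percent of CDS density) with 95% exact Poisson intervals of the readthrough reads. Grey bars and black lines give the middle 50% and the median of the transcripts with the same stop signal (788 for ID1 and ID2, 561 for ID3 and 1054 for ID4). ID3 at 153% lies above the bar of its signal, ID4 at 50% lies slightly above its own, and ID2 at 2.20% lies below.

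The genes around the ID proteins were taken as 9 lists of 144 genes in all. Of these, 92 were listed in every library and 57 reached the total of 384 CDS reads. The lists were written with earlier results of these data known, so the counts and p-values below are no independent test. In CDS density, 1 of the 57 had a log2 change of at least 1 relative to the mean of the untreated libraries (1.06% of all 5684 transcripts did) and none had fallen. Their median change was 0.13, beside 0.07 for all transcripts. In the edgeR quasi-likelihood fit with an adjusted p under 0.05, 1 was higher (1.94% of all transcripts were) and 0 were lower (0.721% were), against 151 of all transcripts in either direction (2.66%). At an unadjusted p under 0.05, 4 of the 57 were higher and 6 lower, beside 775 of all 5684 transcripts, and DESeq2 called 0 of the 57, beside 27 of all.

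The E proteins are the partners that ID proteins hold. TCF3, which encodes E12 and E47, was the gene that rose, from 5.57 RPKM in Untreated A and 8.90 in Untreated B to 16.5 in G418 A, a log2 change of 1.19 (adjusted p = 0.0366, edgeR). Set against Untreated A the change was 1.57, and against Untreated B 0.89, so that it was under 1 without Untreated A, and the untreated libraries differed by 0.68. DESeq2 gave an unadjusted p of 0.0204 and no adjusted value. TCF12 had 12.02, 17.9 and 19.0 RPKM, and TCF4 9.96, 15.3 and 13.3 RPKM. For both, G418 A differed less from Untreated B than Untreated B did from Untreated A. The p-value rests on the spread between the untreated libraries, estimated in part across transcripts and not from TCF3 by itself. G418 A, alone in its group, is assumed to share that spread.

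Other partners of ID proteins, bHLH factors, ETS factors and the retinoblastoma family, had 8 of 40 genes in the set, with a median of 0.13 and a range from -0.35 (HES1) to 0.81 (HES4, 1.43 over Untreated A and 0.39 over Untreated B). Upstream, BMP1 was the only gene of the BMP ligand list with enough reads (0.26), and its product is a protease, not a ligand. With fewer reads than the minimum, BMP2 stood at 0.73, BMP8A at 0.92, GDF6 at 0.47 and BMP7 at 0.08. BMP6 (-0.03), BMP3 (-0.15) and BMP4 (-0.25) were lower in G418 A. Of the 12 BMP receptor and co-receptor genes 8 were listed, and the 5 that reached the read minimum had log2 changes from 0.12 for NEO1 to 0.48 for ACVR1. Under that minimum, ACVR2B stood at 0.90, RGMB at 0.42 and RGMA at -0.26. Among them the type 1 receptor BMPR1A had 16.0, 16.2 and 19.4 RPKM and the type 2 receptor BMPR2 26.1, 24.3 and 31.2 RPKM. Of the 6 SMADs, the proteins that carry the signal to the nucleus, 4 reached the read minimum, with log2 changes from 0.24 to 0.40. SMAD5, which BMP receptors phosphorylate, had 47.8, 54.7 and 60.3 RPKM and the common partner SMAD4 36.2, 38.4 and 46.6 RPKM. SMAD2 and SMAD3, which serve the TGF-beta and activin receptors, changed by 0.40 and 0.34. None of these receptor and SMAD changes passed the edgeR threshold. SMAD1 was not listed in every library.

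Inhibitors of BMP signalling had 9 of 23 genes in the set, with a median of 0.22 and a range from -0.39 (SKIL, a SMAD co-repressor) to 0.77 (TOB2). Genes for turnover of ID proteins had 9 of 11, with a median of 0.08. USP1, the enzyme that removes ubiquitin from ID proteins, had 57.0, 50.6 and 58.8 RPKM, and FZR1, which brings the anaphase-promoting complex to its substrates, had 17.2, 18.4 and 26.6 RPKM (0.58). The lowest of that list was ANAPC2, a subunit of the complex, at 21.2, 25.4 and 16.0 RPKM (-0.54). Cell-cycle genes known as targets of E or ID proteins had 8 of 12, with a median of 0.13. CDKN1A, an inhibitor of cyclin-dependent kinases, was at 109, 145 and 99.0 RPKM (-0.36), and CCNE1, cyclin E1, at 24.6, 23.04 and 38.8 RPKM (0.70). Immediate early genes, whose mRNAs are also short-lived, had 11 of 24, with a median of -0.07 and a range from -0.70 (IER5) to 0.56 (ZFP36L2).

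A further 7 genes of the lists had log2 changes of at least 1 in size but fewer CDS reads than that minimum. Of all transcripts with a total of at least 60 reads, 3.21% rose and 0.637% fell by that much, and CDKN1C, with a mean of 16.3 reads per library, lies under that total too. Those shares also take in transcripts with many reads, so they are not rates for genes with few reads. TWIST1 (1.24), TWIST2 (1.22), ELK1 (1.64), NOG (1.37) and CTDSP2 (1.07) were higher in G418 A. BTG2, an antiproliferative gene, was lower, at 21.9, 48.2 and 14.0 RPKM (-1.32), and so was the cyclin-dependent kinase inhibitor gene CDKN1C (-1.27), which was 0.51 above Untreated A and 2.05 below Untreated B. For TWIST2, ELK1, CDKN1C and BTG2 the untreated libraries themselves differed by more than 1 on this scale.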

How the data were processed

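RPFs of HEK293T cells were counted in 2 untreated libraries and 1 G418 library. Per the study's methods, the authors collapsed reads by molecular identifier, discarded noncoding RNA, aligned the rest with STAR to hg38 with GENCODE release 30, and assigned fragments of 28 to 35 nt by A site to a single transcript per gene (the 3′-most stop codon). The authors deposited RPM values per region, RPKM densities (CDS ends, 33 nt in all, and 6 nt of each UTR left out), a 5′UTR density column and a ratio, the RRTS. Whole-number counts deposited beside them were 1 lower than the reads behind the RPM values in most rows of Untreated A. Reads were therefore recovered from the RPM values (100% of nonzero UTR values were whole within 0.01 reads) and used throughout, in place of the count columns that had been planned.

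The members and lists were chosen with earlier results of these data known. Named genes were the members, the list genes past a log2 change of 1 or an adjusted p of 0.05, otherwise examples from the lists, and the 3 transcripts nearest to each member with enough reads (those of ID2 are not reported here). A log2 change divides G418 A by a library or by the untreated mean, with no pseudocount. Intervals are 95% (exact Poisson, Wilson, or conditional binomial for ratios) and cover counting error only. edgeR 4.0.16 (TMM, quasi-likelihood, Benjamini-Hochberg over 5684 transcripts) and DESeq2 1.42.0 were run in R 4.3.3. Other steps used Python 3.11.15 with scipy 1.17.1, and transcript structures came from GENCODE release 44. The labels give letters A and B without saying what they mark, and the paper describes its replicate libraries as biological replicates. The p-values set the difference of G418 A against a spread estimated from the 2 untreated libraries alone, in part across transcripts and not from each transcript by itself.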

Additional observations from a re-analysis of the deposited data

How the results depend on the processing

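Under the alternatives tried, the log2 CDS changes of ID1, ID2 and ID3 stayed negative, and 24 of 73 recomputed values moved. The change of ID4, -0.12 as reported, turned positive with all reads of the mRNA (0.18) and without Untreated B (0.06). The change of ID2 went from -0.30 to -0.37 with TMM scaling and to -0.37 with DESeq2 size factors. With all reads of the mRNA, ID3 changed by -0.22 and ID4 by 0.18, because UTR reads enter. Without either untreated library the log2 changes ranged from -1.34 to -1.16 for ID1, from -0.34 to -0.26 for ID2, from -1.20 to -0.87 for ID3 and from -0.28 to 0.06 for ID4. Transcripts that fell by at least 1 numbered 54 with a minimum mean of 20 CDS reads, 2 with 500, 77 with no filter, 8 with TMM scaling and from 3 (without Untreated B) to 12 (without Untreated A). Those that rose numbered 60, and 272, 3 and 306 under the same minimums and from 67 to 126 without a library. The 5′UTR share of ID4 in G418 A over the untreated mean was 1.0, and 1.23 as density over CDS density. RRTS rose by 147 percentage points for ID3, and 50.6 over the whole 3′UTR, and for ID4 50 and 3.53. Genes of the lists past a change of 1 numbered 7 with a minimum of 20 reads and from 0 to 2 without a library. The median of the lists was 0.21 with that minimum, 0.064 with TMM scaling and from 0.14 to 0.19 without a library. TMM moved the change of all transcripts by about their median of 0.07. edgeR called 151 transcripts (110 higher, 41 lower), DESeq2 27 (10 higher and 17 lower, with 3747 given no adjusted p), edgeR without TMM 206 (173 higher, 33 lower) and without a filter 133. The cause of the difference between tools was not tested.

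No paired analysis was possible because the groups share only the letter A. Leaving out an untreated library in edgeR leaves 1 against 1 and no count. All CDS reads in place of the deposited density could not be obtained, as the ends of the CDS are already left out of the deposited reads. The G418 group is 1 library, and ID1 (49 CDS reads there), the untreated readthrough of ID3 and the extension of ID4 (8 reads) rest on few reads.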
